A study of Homo sapiens with 4 samples.

Results

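The genes described here encode RBM39, the splicing factor that indisulam marks for destruction, its paralog RBM23, and the subunits of the ubiquitin ligase that carries this out: DCAF15, DDA1, DDB1, CUL4A, CUL4B and RBX1. They were chosen by name for their role in this reaction, and all 8 were found among the 60279 genes of the count tables through their Ensembl identifiers. RNA was sequenced from SUM159, a triple-negative breast cancer cell line that the authors received as a gift, in 4 libraries, 1 each for untreated cells, palbociclib alone, indisulam alone and both drugs together. Palbociclib blocks CDK4 and CDK6, kinases that drive cells from G1 into S phase. According to the labels the cells received 0.5 µM palbociclib, 2 µM indisulam or both, and every library, the untreated one included, was taken at 10 days. The series text gives 2 µM and 3 µM for 16 h in technical duplicates, so dose and duration are not settled, and it is not stated whether duplicates were pooled.

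Cullin-RING ligases are built around a long cullin scaffold. One end of CUL4A or CUL4B holds the RING protein RBX1, which brings in a ubiquitin-loaded E2 enzyme, and the other end holds the adaptor DDB1, onto which one of many substrate receptors docks. DCAF15 is such a receptor, and DDA1 is a small DDB1-binding protein that sits with it. Indisulam and related aryl sulfonamides fill a pocket on DCAF15 and create a surface for an RNA recognition motif of RBM39, which is then ubiquitinated and degraded by the proteasome. RBM23 has a closely similar motif and can be degraded in the same way. The step acts on protein, whereas the libraries measured here count poly(A) transcripts, and protein levels were not analysed here.

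The libraries held 12555908 to 16712174 reads in genes, so that 3 counts, taken as the floor, corresponded to 0.180 to 0.239 CPM, the read count relative to all gene reads of the library. Mitochondrially encoded genes took 4.90% to 7.33% of the gene reads. Of the markers of the line, VIM was at 2643 to 4598 CPM and CD44 at 706 to 883 CPM. ESR1 (0.239 to 1.11 CPM), PGR (0 to 0.209), CDH1 (0.788 to 1.95) and EPCAM (0.394 to 1.12) were low, with at most 28 reads in any library. ERBB2 was at 110 to 143 CPM, KRT8 at 416 to 575 CPM and KRT18 at 162 to 249 CPM. Markers of other cells were not absent. The leukocyte gene PTPRC was at 11.1 to 17.5 CPM. The fibroblast gene COL1A1 was at 1795 CPM in the untreated, 2807 in the palbociclib, 2148 in the indisulam and 1246 in the combination library, and the endothelial gene PECAM1 was at 15.2, 40.9, 17.5 and 20.4 CPM in the same order. By the call rule given below, PECAM1 was higher for palbociclib against untreated (log2 ratio 1.42), and both COL1A1 (−1.17) and PECAM1 were lower, and the epithelial gene CDH1 (1.23, from 10 to 28 reads) higher, for the combination against palbociclib. CDH1 was also called higher for the combination against indisulam (1.06), and all 3 were called for the departure from additivity. In a bulk library fewer cells of a type and less RNA per cell cannot be told apart, and the part of these markers in the results below was not tested.

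With 1 library per condition there is no replicate and no p-value. Ratios are given on the log2 scale with a 95% interval that covers counting error only, and PCR copies, which carry no molecular identifiers here, are not separate molecules. A gene was called changed when it differed by at least 2-fold and the interval excluded a ratio of 1. The 5 comparisons share libraries with each other. Indisulam against untreated is called its ratio without palbociclib and the combination against palbociclib its ratio with palbociclib, and these come from different libraries. For palbociclib, the ratio without indisulam is that to the untreated library and the ratio with indisulam is that of the combination to indisulam alone. The departure from additivity is what remains of the log2 ratio between combination and untreated once both single-drug ratios are taken away. The robust spread of this departure was taken over genes at a similar level and divided by the square root of 2. It limits from above how far 1 ratio between libraries strays (its SD) only if the errors of the 4 libraries are independent. That could not be checked with 1 library per condition, and the value describes genes of that level, not a single member. For the members this bound was 0.24 to 0.31.

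All 8 members passed the filter of a mean of 1 CPM. None of them was called for indisulam against untreated, where 15.1% of the 14269 tested genes were called, and none for the combination against palbociclib, where 16.9% were. Palbociclib against untreated called 0 of the 8 members and 10.7% of all tested genes, and the combination against indisulam called 0 of 8 and 8.19% of all. For the combination against untreated 1 member, DDA1, was called higher, and 23.5% of all tested genes were called. No member was called for the departure from additivity, against 7.77% of all tested genes. These shares cover genes down to a mean of 1 CPM, whereas the lowest member, DCAF15, had a mean of 17.9 CPM. A share called among genes at the level of the members was not computed.

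**Figure D1:**
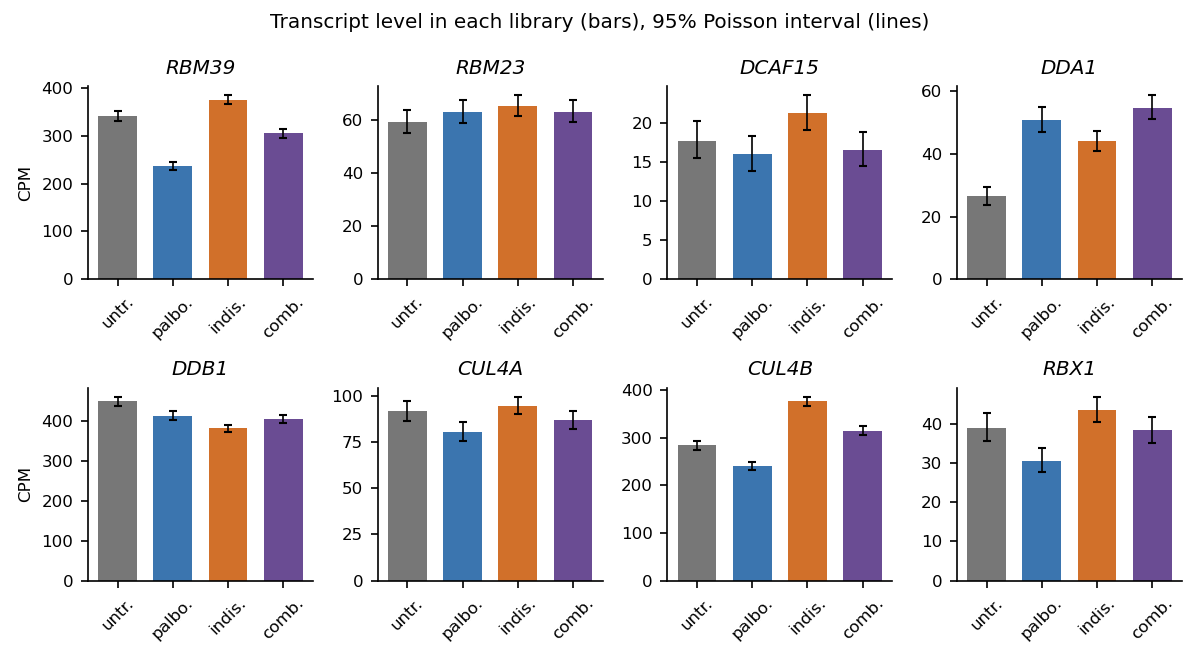
Transcript level of each member in CPM (vertical axis, starting at 0) in the untreated, palbociclib, indisulam and combination libraries (bars, 1 library each), with 95% Poisson intervals as lines. RBM39 was lowest under palbociclib at 237 CPM and DDA1 was lowest in the untreated library at 26.4 CPM, while RBM23 stayed between 59.3 and 65.4 CPM.

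The transcript of RBM39, an RNA-binding protein that helps to select splice sites, was not lower in either ratio for indisulam. RBM39 (ENSG00000131051, chr20:35701347-35742312 of hg38, minus strand, 17 exons in the canonical transcript) was at 342 CPM in the untreated library, 237 under palbociclib, 376 under indisulam and 305 under the combination. The indisulam library was the highest of the 4 and the palbociclib library the lowest, a span of 1.59-fold, and each neighbouring pair in this order was separated by more than counting error. For indisulam the log2 ratio was 0.13 (0.08 to 0.19) without palbociclib and 0.37 (0.30 to 0.43) with it, which are 0.438 and 1.19 times the bound of 0.31 on the spread of a ratio. Both intervals stayed above 0 under all 5 scalings tried, with ratios between 0.06 and 0.13 for the former and between 0.27 and 0.37 for the latter. Against untreated the combination was lower, at −0.17 (−0.23 to −0.10), with an interval below 0 under all 5 scalings.

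With palbociclib RBM39 was lower in both estimates. Its log2 ratio was −0.53 (−0.60 to −0.47) without indisulam and −0.30 (−0.36 to −0.24) with it, 1.73 and 0.976 times the bound. The first of these lay at percentile 11.2 of the 417 tested genes within 0.5 log2 units of its level, and neither reached the call. The departure from additivity was 0.23 (0.14 to 0.32), or 0.533 times the spread of that quantity over the 417 genes.

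RBM23 (ENSG00000100461, chr14:22893204-22919182, minus strand), the paralog that can follow RBM39 to the same ligase, showed the narrowest range of the 8 members. It was at 59.3 CPM in the untreated library, 63.1 under palbociclib, 65.4 under indisulam and 63.2 under the combination, a span of 1.10-fold in which no neighbouring levels differed beyond counting error. For indisulam its log2 ratio was 0.14 (0.01 to 0.27) without palbociclib, with an interval that excluded 0 under the library totals but under none of the 4 other scalings. With palbociclib it was 0.00 (−0.13 to 0.14). The ratios for palbociclib were 0.09 (−0.05 to 0.23) and −0.05 (−0.18 to 0.08).

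Because the paralogs could share reads, their sequences were compared in the coding parts of the canonical GENCODE 44 transcripts. RBM39 and RBM23 were identical at 69.25% of 1239 aligned coding bases, and their longest shared run of bases was 12, far below the read length of 65 bases given for part of the study. CUL4A and CUL4B were identical at 73.87% of 2266 aligned bases, with a longest shared run of 23. The 60-base stretches in which each pair is most alike are shown because these are the places where a read could most easily be assigned to the wrong paralog. Capitals mark the bases that differ, 10 for RBM39 and RBM23 and 8 for CUL4A and CUL4B, and positions are counted from the A of the start codon.
RBM39, bases 661 to 720: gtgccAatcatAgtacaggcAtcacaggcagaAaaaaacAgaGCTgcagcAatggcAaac
RBM23, bases 700 to 759: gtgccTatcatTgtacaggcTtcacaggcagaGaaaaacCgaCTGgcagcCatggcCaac
CUL4A, bases 389 to 448: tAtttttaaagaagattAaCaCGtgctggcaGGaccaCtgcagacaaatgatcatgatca
CUL4B, bases 797 to 856: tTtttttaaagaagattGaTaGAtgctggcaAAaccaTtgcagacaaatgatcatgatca

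Over the whole canonical transcript, 1.38% of the 65-base windows of RBM39 occurred in another annotated gene, all in the pseudogene RBM39P1, which had 0 reads in every library. For RBM23 the share was 1.20% and for DDA1 0.302%, and for the other 5 members it was 0. Matches to the opposite strand were included, and those of DDA1 were all in ANO8, which overlaps it on that strand. Only exact matches were searched. Reads with more than 1 place in the genome, 6.46% to 6.84% of all tallied reads, were not counted for any gene. The 0 reads of RBM39P1 therefore say nothing about the windows it shares with RBM39.

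The balance of the paralogs within a library does not depend on how libraries are scaled to each other. RBM23 gave 14.8% of the reads of RBM23 and RBM39 together in the untreated library (Wilson 95% interval 13.8% to 15.8%), 21.1% under palbociclib (19.8% to 22.4%), 14.8% under indisulam (14.0% to 15.7%) and 17.2% under the combination (16.2% to 18.2%). The untreated and indisulam shares coincided, and the palbociclib library stood above the other 3. On the log2 scale the ratio of RBM23 to RBM39 was 0.01 higher with indisulam than untreated (−0.14 to 0.15) and 0.62 higher with palbociclib than untreated (0.46 to 0.78). Per length of the canonical transcript, RBM23 reads were 0.0877 of those of RBM39 in the untreated and 0.135 in the palbociclib library.

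**Figure D2:**
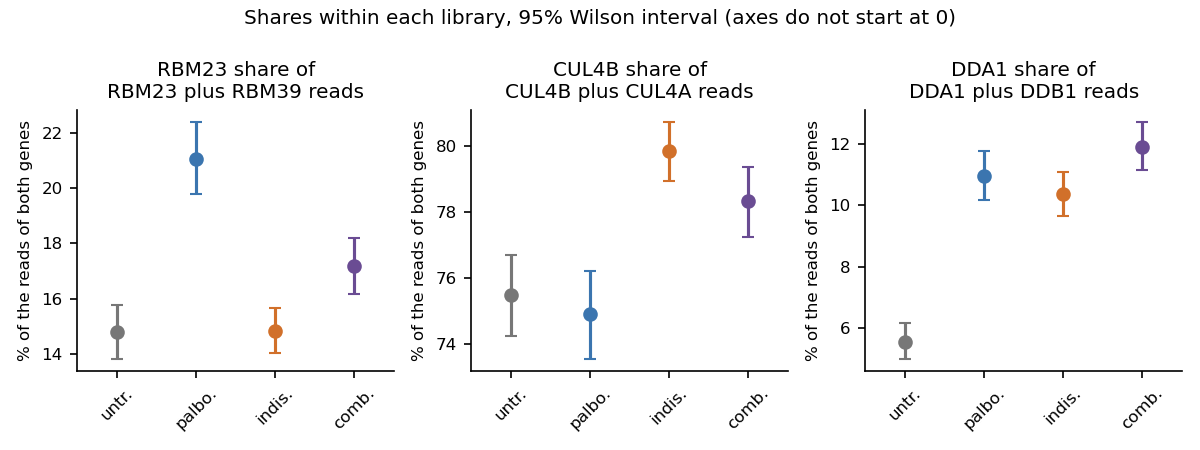
Share of the first gene in the summed reads of a pair, in percent (vertical axes, not starting at 0), in each of the 4 libraries, with 95% Wilson intervals. The RBM23 share was highest under palbociclib at 21.1%, the CUL4B share was higher in the libraries with indisulam (79.9% and 78.3%) than in those without it (75.5% and 74.9%), and the DDA1 share of DDA1 and DDB1 was lowest in the untreated library at 5.56%.

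DCAF15 (ENSG00000132017, chr19:13952509-13961449, plus strand), the receptor that indisulam binds, had the lowest CPM of the members. It was at 17.8 CPM in the untreated library (223 reads), 16.0 under palbociclib (203 reads), 21.2 under indisulam (355 reads) and 16.6 under the combination (238 reads). Indisulam was the highest library, and the other 3 did not differ from their neighbours in order beyond counting error. The indisulam ratio of DCAF15 was 0.26 (0.02 to 0.50) without palbociclib and 0.05 (−0.22 to 0.32) with it, of which the latter at this depth leaves room for a change of either sign. The interval of the former excluded 0 under 2 of 5 scalings, and the latter was negative under some of them (lowest −0.05). The palbociclib ratio was −0.15 (−0.42 to 0.12) without indisulam and −0.36 (−0.59 to −0.12) with it. PODNL1, on the opposite strand, shares 190 exonic bases with DCAF15 (6.45% of its exon sequence), and whether strand was used in counting is not stated. Reads in the shared part would be left out as ambiguous if it was not.

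DDA1 (ENSG00000130311, chr19:17309518-17323298, plus strand), the small DDB1-binding subunit that supports the contact of receptor and adaptor, had the widest range among the members, 2.07-fold between the lowest and the highest library. It was at 26.4 CPM in the untreated library (332 reads), 50.9 under palbociclib (646 reads), 44.1 under indisulam (737 reads) and 54.8 under the combination (787 reads). Each of the 3 treated libraries was above the untreated one, and the combination did not differ from palbociclib beyond counting error. The log2 ratio to untreated was 0.74 (0.55 to 0.92) for indisulam, 0.94 (0.75 to 1.13) for palbociclib and 1.05 (0.86 to 1.23) for the combination, or 2.79, 3.57 and 3.98 times the bound of 0.26.

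Only the last of these ratios, a rise of 2.07-fold, passed the call, and it stood at 0.96 with TMM factors and 0.97 with median-of-ratios factors, just short of it. When the other drug was already present the differences were smaller, at 0.11 (−0.04 to 0.26) for indisulam on top of palbociclib and 0.31 (0.17 to 0.46) for palbociclib on top of indisulam. The departure from additivity was −0.63 (−0.87 to −0.39), at percentile 5.71 of the 2758 tested genes of similar level. The untreated library entered each of the 3 larger ratios, so they are not separate observations. The ratio to untreated lay at percentile 97.5 for palbociclib, 91.6 for indisulam and 93.6 for the combination among the same 2758 genes. Between combination and untreated these genes had a robust spread of 0.64. DDA1 is also on 1 of the senescence gene lists that the study used. A link between this listing and the levels of DDA1 here was not tested. ANO8 on the opposite strand shares 76 exonic bases with DDA1.

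DDB1 (ENSG00000167986, chr11:61299451-61342596, minus strand), the adaptor common to all CUL4 ligases, was the most abundant member. It was at 449 CPM in the untreated library, 414 under palbociclib, 382 under indisulam and 405 under the combination, a span of 1.18-fold. The untreated library was the highest, and the indisulam ratio was −0.24 (−0.29 to −0.18) without and −0.03 (−0.08 to 0.02) with palbociclib. The interval of the latter lay below 0 under 3 of 5 scalings. For palbociclib the ratios had opposite signs, −0.12 (−0.17 to −0.06) against untreated and 0.09 (0.04 to 0.14) on top of indisulam, and both were within 0.406 times the bound. The departure from additivity, which is the difference between these ratios, was 0.20 (0.13 to 0.28), or 0.499 times the spread of that quantity over 279 genes of similar level, and was not called. TKFC shares 493 exonic bases with DDB1 on the opposite strand, 3.18% of the exon sequence of DDB1.

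Against DDB1 in the same library, DDA1 gave 5.56% of the reads of the pair in the untreated library, 10.9% under palbociclib, 10.4% under indisulam and 11.9% under the combination. The untreated library was apart from the other 3, as in the CPM. DCAF15 gave 3.80% of the reads of DCAF15 and DDB1 in the untreated library, 3.72% under palbociclib, 5.27% under indisulam (4.76% to 5.83%) and 3.93% under the combination (3.47% to 4.45%). The receptor was thus highest relative to the adaptor in the indisulam library, and the intervals of the other 3 overlapped.

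**Figure D3:**
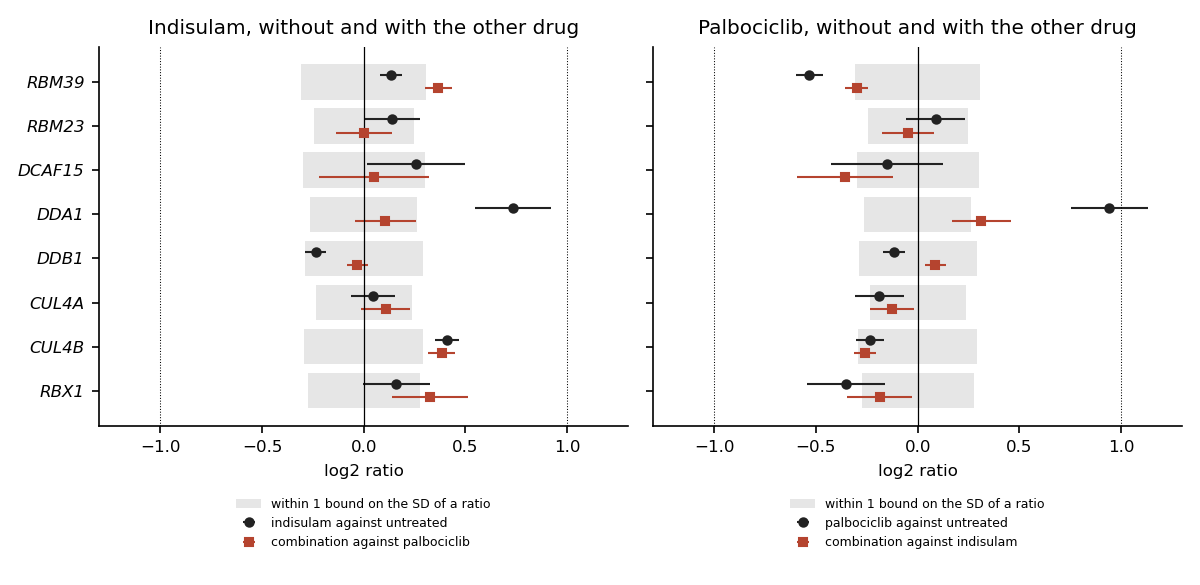
Log2 ratio (horizontal axis) of each member for indisulam (left) and palbociclib (right), without the other drug (circles) and with it (squares), with 95% counting intervals as lines. Grey boxes reach 1 bound on the standard deviation of a ratio to each side of 0, and dotted lines mark a 2-fold difference, which no ratio shown reached. DDA1 under a single drug lay farthest from 0, at 0.74 and 0.94, and RBM39 under palbociclib was the lowest at −0.53.

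The scaffolds CUL4A and CUL4B differ in that CUL4B carries an extended N-terminus with a nuclear localisation signal. CUL4A (ENSG00000139842, chr13:113208193-113267108, plus strand) was at 91.9 CPM in the untreated library, 80.7 under palbociclib, 94.9 under indisulam and 87.0 under the combination. No neighbouring levels in this order differed beyond counting error, and the ends differed by 1.18-fold. Its indisulam ratio was 0.05 (−0.06 to 0.16) without palbociclib, −0.03 under the scaling that gave the lowest value, and 0.11 (−0.01 to 0.23) with palbociclib. For palbociclib the ratio of CUL4A was −0.19 (−0.31 to −0.07) without and −0.13 (−0.23 to −0.02) with indisulam. The interval of the former lay below 0 under all 5 scalings and that of the latter under 3 of 5. PCID2 shares 437 exonic bases with CUL4A on the opposite strand, 5.59% of its exon sequence.

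CUL4B (ENSG00000158290, chrX:120505920-120604074, minus strand) was the more abundant scaffold in reads and was higher with indisulam in both estimates. It was at 283 CPM in the untreated library, 241 under palbociclib, 376 under indisulam and 315 under the combination, and all neighbours in this order differed beyond counting error. The indisulam ratio was 0.41 (0.35 to 0.47) without and 0.38 (0.32 to 0.45) with palbociclib, 1.39 and 1.31 times the bound, and both intervals stayed above 0 under all 5 scalings. For palbociclib it was −0.23 (−0.30 to −0.16) without and −0.26 (−0.31 to −0.20) with indisulam. The departure from additivity was −0.02 (−0.11 to 0.06).

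CUL4B took 75.5% of the reads of both scaffolds in the untreated library (74.3% to 76.7%), 74.9% under palbociclib (73.6% to 76.2%), 79.9% under indisulam (79.0% to 80.7%) and 78.3% under the combination (77.3% to 79.4%). The intervals of the libraries with indisulam lay above those of the libraries without it. On the log2 scale the ratio of CUL4B to CUL4A was higher with indisulam, by 0.36 (0.24 to 0.49) in the absence and by 0.28 (0.14 to 0.41) in the presence of palbociclib.

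RBX1 (ENSG00000100387, chr22:40951347-40973309, plus strand), the RING protein, was at 39.0 CPM in the untreated library, 30.6 under palbociclib, 43.6 under indisulam and 38.3 under the combination. The palbociclib library was lower than the next one beyond counting error, and the other 3 were not separated from their neighbours. Indisulam gave a ratio of 0.16 (−0.00 to 0.33) without and 0.32 (0.14 to 0.51) with palbociclib. Palbociclib gave −0.35 (−0.54 to −0.16) without and −0.19 (−0.35 to −0.03) with indisulam. The interval of the former lay below 0 under all 5 scalings and that of the latter under 4 of 5. The annotated pseudogene RBX1P1 had 0 reads and RBX1P2 between 1 and 7.

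In order of reads per kilobase of the canonical transcript, scaled to the gene reads of the library (RPKM), DDB1 came first in all 4 libraries, at 89.9 to 106, and RBM39 second, at 46.7 to 74.3. They were followed by CUL4B at 40.7 to 63.6, RBX1 at 26.2 to 37.3 and CUL4A at 13.9 to 16.3 RPKM. DDA1 was at 6.54 to 13.6 and DCAF15 at 7.07 to 9.39, with DCAF15 above DDA1 in the untreated library and below it in the others. RBM23 was last, at 5.93 to 6.54 RPKM over a transcript of 10007 bases. Among 12542 tested protein-coding genes, RPKM of DDB1 lay at percentiles 94.8 to 95.4, that of RBM39 at 89.8 to 93.5, that of DCAF15 at 45.1 to 51.7 and that of RBM23 at 40.4 to 42.0. The order depends on the length used. With the union of all annotated exons, an alternative added after the data had been seen, CUL4B was at 7.13 to 11.1 RPKM, the fifth or the sixth place, and RBM39 passed DDB1 in the indisulam library (31.4 against 24.6), while RBM23 remained last.

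To place the profile of RBM39 among other genes, centred log2 CPM over the 4 libraries was compared with that of 2693 protein-coding genes at 0.25 of its level or more. The 5 closest were ERBIN, GTF2F1, KARS1, HNRNPA1 and CBX5, with root mean square differences of 0.03 to 0.04, and 69 genes were within 0.1. HNRNPA1, which encodes an abundant splicing regulator, was at 657, 443, 756 and 605 CPM in the untreated, palbociclib, indisulam and combination libraries. ERBIN was at 232, 152, 252 and 204 CPM in the same order. Of the members above that level, CUL4B was at a difference of 0.13, CUL4A at 0.16 and DDB1 at 0.28, against a median of 0.32 over all 2693 genes. For RBM23, KDM5B, DNAH5 and QRSL1 were closest and 634 of 8640 genes were within 0.1, and for DCAF15, DENND1B, WHAMM and ZNF175 were closest and 494 of 11001 genes were within 0.1. With 4 libraries such likeness is a description only.

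Of 25 genes for other substrate receptors that dock on DDB1, all tested, 1 was called higher and 1 lower for indisulam without palbociclib, where 15.1% of all tested genes were called. With palbociclib 0 were called higher and 3 lower, against 16.9% of all tested genes called. The median log2 ratio of the 25 was −0.10 in both, against 0.06 and 0.07 over all tested genes. PHIP rose from 58.5 CPM untreated to 124 CPM with indisulam (log2 ratio 1.08, 0.96 to 1.21), and it was at 62.6 CPM under palbociclib and 99.9 CPM under the combination.

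DDB2, the receptor that recognises UV damage in DNA, was at 25.6 CPM untreated, 8.35 under palbociclib, 9.93 under indisulam and 6.76 under the combination. It fell with either single drug, by 1.36 on the log2 scale with indisulam and by 1.61 with palbociclib, and its departure from additivity of 1.06 (0.58 to 1.54) was called. DDB2 differed by −0.30 (−0.70 to 0.09) between the combination and palbociclib.

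DCAF6, DCAF8 and DCAF11 fell from palbociclib to the combination, by 1.26, 1.12 and 1.14 on the log2 scale. DCAF11 was at 69.8 CPM untreated, 46.3 under palbociclib, 37.4 under indisulam and 21.0 under the combination. The ratios of these 3 genes for indisulam against untreated were −0.91, −0.86 and −0.90 and did not reach the call. DTL, the receptor that targets CDT1 during replication, was at 9.08 CPM untreated, 21.2 under palbociclib, 16.9 under indisulam and 33.8 under the combination, and it rose with palbociclib (1.22, 0.90 to 1.53). With indisulam present, the palbociclib ratio of DTL missed the call and passed it at 1.03 with upper-quartile factors and at 1.02 without mitochondrially encoded genes.

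FBXW5, DCAF17 and DCAF1 were not called for indisulam. DCAF1, a large receptor used by lentiviral accessory proteins, had ratios of 0.68 (0.52 to 0.84) and 0.55 (0.38 to 0.72) without and with palbociclib. DCAF17 had 0.61 and 0.75, and FBXW5 −0.22 and −0.87.

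**Figure D4:**
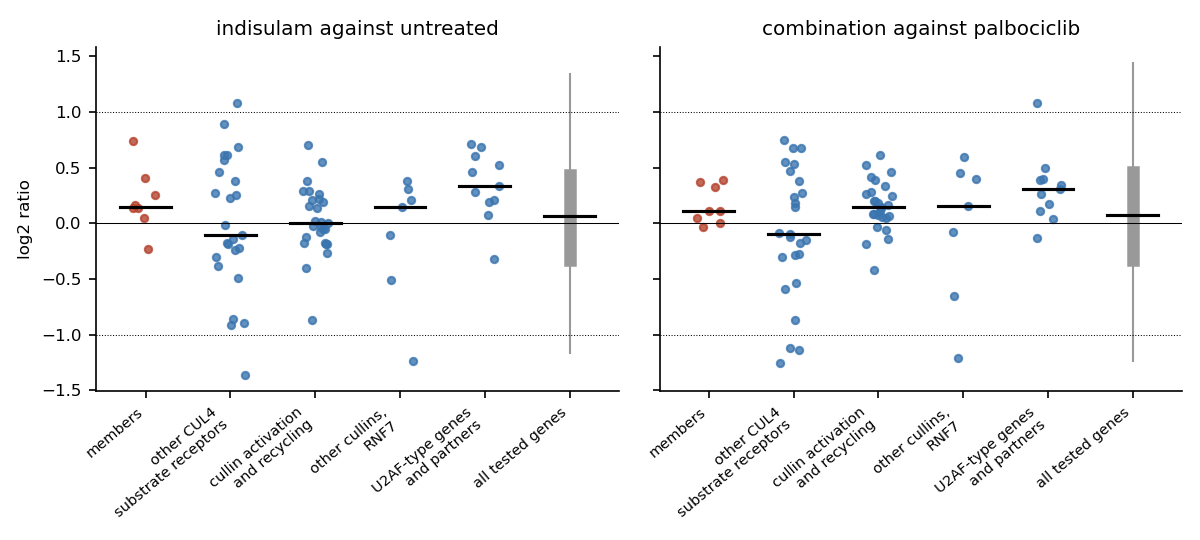
Log2 ratios (vertical axis) for indisulam against untreated (left) and the combination against palbociclib (right) of the 8 members and of 4 other lists, 1 point per tested gene, with black lines at the medians. For all tested genes the thick bar spans percentiles 25 to 75 and the thin line 5 to 95, and dotted lines mark a 2-fold difference. The members lay between −0.24 and 0.74 on the left and between −0.03 and 0.38 on the right, inside the range of all genes.

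Cullins work only after NEDD8 has been attached to them and are reset by the COP9 signalosome and CAND1. Of 27 genes for this cycle and for the E2 enzymes that serve it, 0 were called in any of the 5 comparisons under the library totals, in which 8.19% to 23.5% of all tested genes were called. With TMM factors 1 of them, the E2 enzyme gene UBE2R2, named here after its value was seen, was called lower for the combination against untreated. Their median indisulam ratio was 0.01 without and 0.15 with palbociclib, against 0.06 and 0.07 over all tested genes. COPS7A, a signalosome subunit, was at 99.8 CPM untreated, 71.6 under palbociclib, 54.5 under indisulam and 53.6 under the combination, and its ratios for indisulam were −0.87 and −0.42. The E2 enzyme UBE2D1 had ratios of 0.71 and 0.52, and DCUN1D1, which promotes neddylation, had 0.55 and 0.61. DCUN1D2 had 0.38 and 0.46.

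Among 7 other cullin genes, counting RNF7, the RING partner of CUL5, only CUL7 was called for indisulam, without and with palbociclib. Of all tested genes, 15.1% and 16.9% were called in these comparisons. CUL7, the scaffold of an FBXW8 ligase, was at 149 CPM untreated, 97.5 under palbociclib, 62.9 under indisulam and 42.0 under the combination. It fell with indisulam in both estimates, by 1.24 without and by 1.21 with palbociclib on the log2 scale. CUL9, a relative of CUL7, had ratios of −0.51 and −0.66, whereas CUL2 had 0.38 and 0.60, CUL3 had 0.31 and 0.45, and RNF7 had 0.21 and 0.40, none of them called.

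RBM39 carries a U2AF homology motif, a fold that grips short peptide ligands in splicing factors such as SF1 and SF3B1. Of 11 genes for other proteins with such a motif and for their partners, 0 were called for indisulam without palbociclib and 1 with it, where UHMK1 rose. The shares called over all tested genes were 15.1% and 16.9%. The kinase gene UHMK1 was at 108 CPM untreated, 99.0 under palbociclib, 177 under indisulam and 209 under the combination, with ratios of 0.71 (0.62 to 0.81) and 1.08 (0.98 to 1.17). The call was lost at 0.98 with TMM factors and at 0.998 with median-of-ratios factors. The median log2 ratio of the 11 genes was 0.33 and 0.31, against 0.06 and 0.07 over all tested genes.

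The core 3′ splice site factor U2AF2 was at 120 CPM untreated, 173 under palbociclib, 172 under indisulam and 158 under the combination, with ratios of 0.52 and −0.13 for indisulam. Its small partner U2AF1 had 0.60 and 0.39, LEMD3 had 0.69 and 0.50, and SF1 had 0.46 and 0.04. GRCh38 holds a near-identical copy of U2AF1, so its count of 142 to 288 reads per library is uncertain.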

How the data were processed

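The authors prepared stranded poly(A) libraries, and the deposited values are raw counts of reads per Ensembl gene, not normalized. The submitters' processing notes name TopHat2 2.1, HTSeq and GRCh38. The strand setting of counting and the annotation release are not given in the sources used here. The study describes 65-base single-end reads for its senescence lists and paired-end reads for splicing, and which of them apply here is not stated. It names Hisat2 for the paired-end reads, an aligner that the processing notes do not list. The labelled doses and 10 days are those it gives for SUM159 in its senescence comparison.

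The 8 members were matched by Ensembl identifier through GENCODE 44 (GRCh38/hg38). Counts were divided by the total gene reads of a library to give CPM, with exact Poisson intervals. For ratios they were scaled to the mean total with a pseudocount of 1 added, over the 14269 genes at a mean of 1 CPM or more, of 29056 with a read. Intervals (95%) and floors (3 counts) cover counting error only. The depth of 12555908 to 16712174 gene reads sets this precision. Ambiguous reads (2.41% to 2.63% of all tallied) and reads in no gene (0.615% to 0.694%) were kept out of the totals.

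Each library was grouped by its label. The members and lists were chosen with earlier results of these data known. Named from the other lists were genes called in either indisulam comparison and otherwise at most 4 with the largest absolute log2 ratio there at a mean of 5 CPM or more, and for likeness the 5 genes nearest RBM39 and the 3 nearest RBM23 and DCAF15. Library totals were replaced in turn by TMM and upper-quartile factors (edgeR 4.0.16), median-of-ratios factors (DESeq2 1.42.0) and totals without mitochondrially encoded genes, and the filter, pseudocount, interval and fold threshold were varied. The procedure was tested on simulated counts that held counting error only, so variation between libraries was not covered. Python 3.11.15, pandas 2.3.3, scipy 1.17.1, Biopython 1.88 and R 4.3.3 were used. Sequences are from the GENCODE 44 transcripts.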

Additional observations from a re-analysis of the deposited data

Results flagged for a closer look

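DDB1 differed in direction between the estimates of the effect of palbociclib. Its log2 ratio was −0.118 without indisulam and 0.0868 with it, and both counting intervals excluded 0 under each of the 5 scalings. The difference between them, which is the departure from additivity, was 0.20 (0.13 to 0.28 from counting error), 0.499 times its spread over genes of similar level, and its interval lay above 0 under all 5 scalings. It was not tested against variation between replicates, since each condition had 1 library.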

How the results depend on the processing

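The call of DDA1 in the combination was lost with TMM and median-of-ratios factors, which left 0 members called, since the log2 ratio of 1.05 became 0.96 and 0.97. A 1.5-fold threshold called 1 member, DDA1, for indisulam against untreated, 1 for palbociclib against untreated and 1 for the departure from additivity. Of the 14269 tested genes, that threshold called 4485 for indisulam against untreated, 4683 for the combination against palbociclib and 3533 for palbociclib against untreated. It called 3167 for the combination against indisulam, 2685 for the departure and 6059 for the combination against untreated. A filter at 5 CPM, which tests fewer genes, left 1212, 1396, 833, 544, 582 and 2104 in the same order, and without a filter the combination against indisulam had 1783. All other counts were within 1.5 times. TMM factors moved the median of all genes by at most 0.098 (log2), and no member ratio whose interval excluded 0 changed sign to the other side of 0 under any scaling, although 9 of 48 ratios left their interval with TMM factors. No paired analysis was possible because each condition had 1 library, and for the same reason no library could be left out. Of the members, depth limits DCAF15 most, with 203 to 355 reads.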

Other observations

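Genes that overlap members on the opposite strand had profiles of their own. PODNL1, beside DCAF15, had 217 reads in the untreated library, 253 under palbociclib, 67 under indisulam and 25 under the combination, and it was called lower for indisulam against untreated (log2 ratio −2.09, −2.48 to −1.70) and for the combination against palbociclib (−3.46, −4.05 to −2.88). TKFC, beside DDB1, had 743, 460, 459 and 285 reads in the same order and was called lower for indisulam against untreated (−1.11, −1.27 to −0.94). ANO8, beside DDA1, had 477, 318, 505 and 232 reads and was called lower for the combination against untreated (log2 ratio −1.23). PCID2, beside CUL4A, had 1040, 606, 1401 and 720 reads and was not called. These genes were named for their position and not by the rule for named genes. Their part in the counts of the members was not tested.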
